A study of Mus musculus with 6 samples.

Results

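A set of 10 markers of the crypt base columnar stem cell was followed in RNA sequencing of sorted mouse crypt epithelium: Lgr5, Ascl2, Olfm4, Smoc2, Igfbp4, Prom1, Cdca7, Gkn3, Nrn1 and Fstl1. They were chosen by name, as genes known for their enrichment in Lgr5-positive stem cells. This choice, like that of the gene lists below, was made with earlier results of these data known. All 10 were found by gene symbol among the 23565 genes of the count table. In 3 libraries the cells came from HopXCreER::Rosa26LSL-tdTomato mice and were sorted for tdTomato, and in 3 libraries from Lgr5eGFP-IRES-CreER::Rosa26LSL-tdTomato mice, sorted for eGFP together with tdTomato. All mice carried the Rosa26 reporter, which makes the red protein tdTomato after Cre has acted, and all received 1 mg of tamoxifen 16 h before the crypts of the small intestine were collected. The labels state neither age nor how many copies of a targeted allele a mouse carried. The Lgr5 allele is a knock-in that makes eGFP and an inducible Cre from the Lgr5 locus. It is known to be active in a part of the crypts, and the targeted copy makes no normal Lgr5. Since the Lgr5-CreER cells were gated on eGFP from that locus, Lgr5 was in part selected by the sort, and genotype and gate cannot be told apart.

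Crypt base columnar cells are slender dividing cells wedged between the Paneth cells at the bottom of the crypt, and they renew the epithelium. Their state depends on Wnt signals, which Lgr5 amplifies by binding R-spondins and so sparing Wnt receptors from the ubiquitin ligases Rnf43 and Znrf3. Ascl2, a basic helix-loop-helix transcription factor, acts with the Wnt effector Tcf4 to hold the stem cell programme. Most of the remaining markers are secreted or surface proteins that label these cells without a settled function in them.

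Promoter sequences are shown for the members whose fall held in every alternative analysis and for which one was at hand. RefSeq promoters (GRCm38.p6) matched Ascl2, Olfm4, Igfbp4, Prom1, Cdca7, Gkn3 and Fstl1. The 250 bases before the start site are given 5′ to 3′ on the gene's strand, and capitals mark a GC box (GGGCGG, which reads as CCGCCC on the other strand) or a TATA box (TATAAA). The windows lie at chr7:142969265-142969514 (minus strand) for Ascl2, chr14:80000052-80000301 (plus strand) for Olfm4, chr11:99040994-99041243 (plus strand) for Igfbp4 and chr2:72475969-72476218 (plus strand) for Cdca7.
Ascl2: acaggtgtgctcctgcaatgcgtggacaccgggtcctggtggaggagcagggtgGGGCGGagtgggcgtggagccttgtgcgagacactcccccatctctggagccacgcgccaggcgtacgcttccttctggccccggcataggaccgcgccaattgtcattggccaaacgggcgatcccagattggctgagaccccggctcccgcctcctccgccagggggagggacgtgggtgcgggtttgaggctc
Olfm4: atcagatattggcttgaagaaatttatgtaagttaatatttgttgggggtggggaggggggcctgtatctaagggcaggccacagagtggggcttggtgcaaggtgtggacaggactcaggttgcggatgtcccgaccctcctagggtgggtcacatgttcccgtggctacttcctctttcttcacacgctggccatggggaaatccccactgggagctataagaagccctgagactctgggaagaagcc
Igfbp4: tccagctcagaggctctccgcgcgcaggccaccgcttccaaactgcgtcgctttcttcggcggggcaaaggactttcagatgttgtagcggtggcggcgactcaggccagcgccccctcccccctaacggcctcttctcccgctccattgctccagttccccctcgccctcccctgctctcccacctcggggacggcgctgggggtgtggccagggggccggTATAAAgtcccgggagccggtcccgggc
Cdca7: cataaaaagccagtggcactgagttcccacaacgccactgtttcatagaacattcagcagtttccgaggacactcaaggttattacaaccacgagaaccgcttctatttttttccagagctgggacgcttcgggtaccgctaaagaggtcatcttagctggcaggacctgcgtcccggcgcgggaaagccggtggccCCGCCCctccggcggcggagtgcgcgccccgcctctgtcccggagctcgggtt
GC content of the 4 windows ran from 54% for Olfm4, with 4 CpG pairs, to 69.2% for Igfbp4, with 22, against a median of 52.4% and 6 pairs over 32851 promoters of this length. The TATA box of Igfbp4 began 28 bases before the start site, and TATAAA was present in 12.4% of all promoters. GGGCGG, searched on both strands, was present in 4 of the 7 member genes, against 35.4% of 27025 genes. A TCF/LEF motif on either strand (the letters CTTTGAA, or the variant CTTTGAT, or the variant CTTTGTA, or the variant CTTTGTT) was in 0 of the 7 genes and in 16.8% of all genes, and the E-box CAGCTG was in 0 of the 7 and in 14.7%. No motif overlapped another in the 4 printed windows, and absence from so short a window says nothing about binding elsewhere.

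The mean level of each of the 10 markers was lower in the Hopx-CreER cells. For each of the 10, the highest Hopx-CreER library lay below the lowest Lgr5-CreER library, which was so for 16.2% of all tested genes. By edgeR's quasi-likelihood test, with Benjamini-Hochberg adjustment over 12439 tested genes, 8 of the 10 were lower at an adjusted p under 0.05, against 3.3% of all tested genes (12.8% changed in either direction). Gkn3 and Nrn1 did not pass, and 0 were higher. With the Lgr5-CreER columns that carry the same number summed into 1 library, 5 of the 10 were lower, and Lgr5, Prom1 and Fstl1 no longer passed (edgeR adjusted p 0.0585, 0.0519 and 0.0748). On the log2 scale the median change from Lgr5-CreER to Hopx-CreER cells, the direction of every fold change below, was -1.14 over the 10 markers and -0.033 over all tested genes. The 10 markers took 0.32% to 0.514% of all counts in the Hopx-CreER libraries and 1.13% to 1.19% in the Lgr5-CreER libraries, most of it from Olfm4. Each library is bulk RNA, so fewer stem cells and less marker RNA per cell cannot be told apart. Hopx-CreER library 3 stood apart from the other 2 of its group in overall expression. Its column name carries a tag that no other column has and that the labels do not explain. Values without it are given for part of the results.

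**Figure D1:**
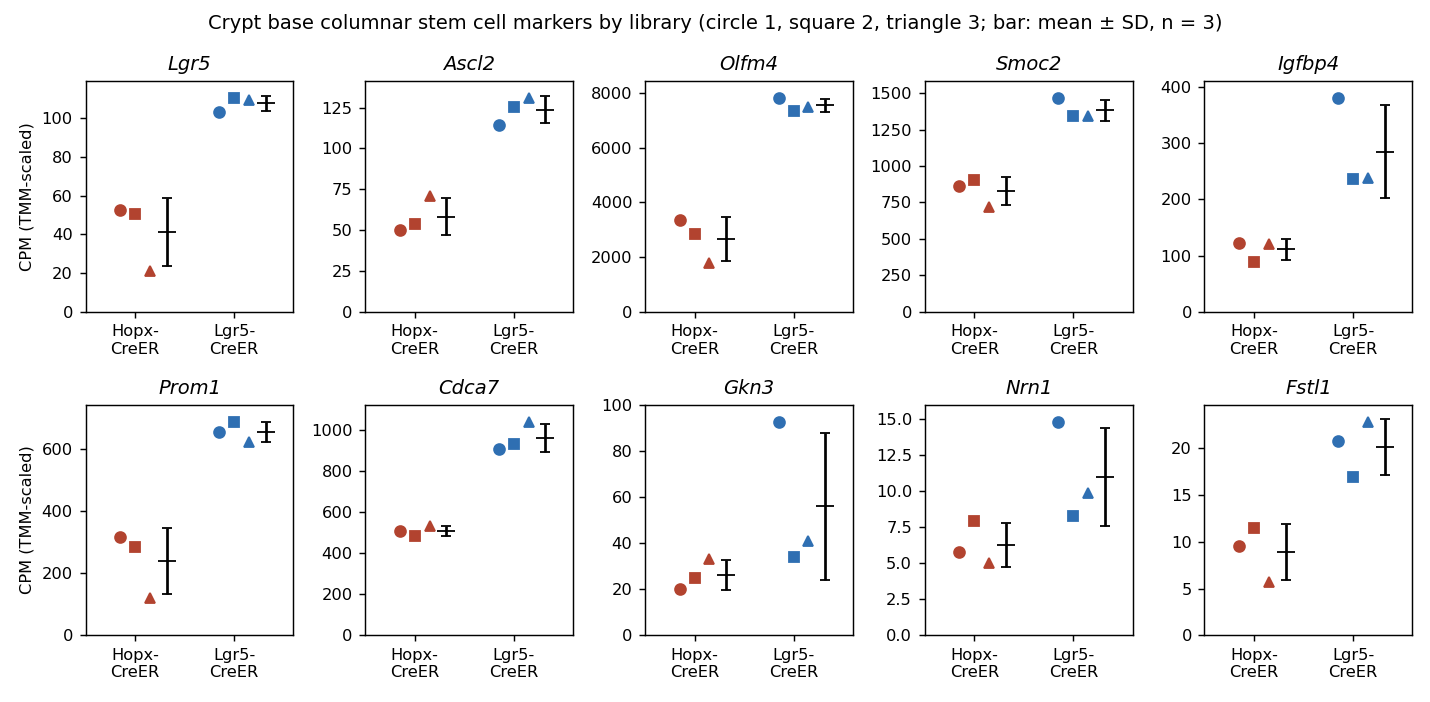
TMM-scaled CPM (linear axes from 0) of the 10 markers in each library, with the mean and SD of the 3 libraries of a group in black. In all 10 panels the Hopx-CreER libraries (red) lie below the Lgr5-CreER libraries (blue), and the triangle of Hopx-CreER library 3 is the lowest red point for Lgr5, Olfm4, Smoc2, Prom1, Nrn1 and Fstl1.

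Lgr5, the R-spondin receptor that names these stem cells (ENSMUSG00000020140.15, chr10:115450311-115587780, minus strand; gene positions are from GENCODE M21 on GRCm38), stood in Hopx-CreER libraries 1, 2 and 3 at 52.8, 50.3 and 21 CPM and at 103.3, 110.5 and 109.6 CPM in the Lgr5-CreER libraries. CPM are counts scaled by library size and TMM factors, and libraries are numbered by their order in the table. The Lgr5-CreER libraries were nearly level, with a coefficient of variation of 3.65%, while Hopx-CreER library 3 held less than any other library. Ascl2 (ENSMUSG00000009248.6, chr7:142966829-142969264, minus strand) was 49.9, 53.8 and 71 CPM against 114.7, 125.3 and 130.8 CPM. Here Hopx-CreER library 3 was the highest of its group and not the lowest. The log2 fold change was -1.38 ± 0.29 (SE; n = 3 and 3; edgeR adjusted p 0.0147) for Lgr5 and -1.09 ± 0.15 (edgeR adjusted p 0.00239) for Ascl2, a 2.61-fold and a 2.12-fold difference in mean CPM. The Lgr5 call was lost, at an edgeR adjusted p of 0.0576 and 0.0537, when Lgr5-CreER library 2 or 3 was left out, and the Ascl2 call held with any 1 library left out.

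Prom1, the pentaspan membrane glycoprotein also called CD133, tracked Lgr5 from library to library. The gene (ENSMUSG00000029086.15, chr5:43993620-44102032, minus strand) stood at 318.7, 285 and 120 CPM (Hopx-CreER) against 654.7, 688.8 and 623.8 CPM (Lgr5-CreER), a log2 fold change of -1.44 ± 0.30 (SE; edgeR adjusted p 0.0135). The ratio of Prom1 to Lgr5 CPM was 6.04, 5.66 and 5.72 in the Hopx-CreER libraries and 6.34, 6.24 and 5.69 in the Lgr5-CreER libraries, so that it changed little while both genes varied several-fold. Lgr5 was in part selected by the sort in the Lgr5-CreER cells, which bears on this ratio between groups. The root mean square difference between the mean-centred log2 CPM of Prom1 and Lgr5 over the 6 libraries was 0.067. Outside the 10 markers, 8156 genes averaged 10 CPM or more, and the nearest to Lgr5 was Pogk, at 0.154. When Lgr5-CreER library 2 was left out, Prom1 did not pass (edgeR adjusted p 0.054). Without Hopx-CreER library 3 its log2 fold change was -1.13 (edgeR adjusted p 0.000116). The antisense gene Gm16401, which shares 424 exonic bases with Prom1, was at 0.507 to 1.27 CPM. Library preparation did not mark the strand, so reads of those bases cannot be assigned to one of them.

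Nrn1, neuritin, a small GPI-anchored protein known from neurons, is a further surface marker and was among the least abundant. The gene (ENSMUSG00000039114.15, chr13:36725361-36735131, minus strand) had 77, 94 and 54 counts in Hopx-CreER cells (5.8, 7.95 and 5.01 CPM) and 221, 96 and 143 counts in Lgr5-CreER cells (14.8, 8.29 and 9.84 CPM). Hopx-CreER library 2 and Lgr5-CreER library 2 were almost level. Its log2 fold change was -0.81 ± 0.31 (SE; edgeR adjusted p 0.13), which did not pass. Nrn1 shares 501 exonic bases with Fars2 on the opposite strand, which stood at 98.4 to 130 CPM (edgeR adjusted p 0.528), and without strand, reads of those bases cannot be assigned to one of them.

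Of the 10 markers, 5 are secreted. Olfm4, an olfactomedin glycoprotein that in mouse crypts responds to Notch, was the third most abundant gene of the table by mean CPM. The gene (ENSMUSG00000022026.6, chr14:79984081-80023139, plus strand) stood at 3357, 2853 and 1772 CPM against 7808, 7333 and 7489 CPM and had a log2 fold change of -1.50 ± 0.21 (SE; edgeR adjusted p 0.00237), the most negative of the 10 with all 6 libraries. Igfbp4 was more negative with GC offsets (-1.56 against -1.36) and without Hopx-CreER library 3 (-1.44 against -1.29). So was Prom1 with GC offsets (-1.41) and without Hopx-CreER library 2 (-1.58 against -1.56). Gkn3 was also more negative without Hopx-CreER library 3 (-1.33). For Olfm4, Hopx-CreER library 3 was the lowest, while the Lgr5-CreER libraries were close to each other. Smoc2, a calcium-binding matrix protein of the SPARC family (ENSMUSG00000023886.9, chr17:14279506-14404790, plus strand), was 865, 905 and 720 CPM against 1466, 1341 and 1341 CPM. Its log2 fold change was -0.74 ± 0.12 (SE; edgeR adjusted p 0.0047), and its groups did not overlap.

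Igfbp4, which binds insulin-like growth factors (ENSMUSG00000017493.12, chr11:99041244-99054392, plus strand), was 122.9, 88.9 and 120.8 CPM against 379.98, 235.8 and 237.2 CPM. Its log2 fold change was -1.36 ± 0.21 (SE; edgeR adjusted p 0.00382), and -1.10 without Lgr5-CreER library 1 (edgeR adjusted p 0.00766), its highest library. Gkn3, a gastrokine first known from the stomach (ENSMUSG00000030048.5, chr6:87383256-87388935, minus strand), showed the same high library more sharply, at 20.04, 25.1 and 33.1 CPM against 92.6, 34.2 and 41.1 CPM. Lgr5-CreER library 1 carried most of its difference, and Hopx-CreER library 3 and Lgr5-CreER library 2 nearly met. The log2 fold change of Gkn3 was -1.10 ± 0.36 (SE; edgeR adjusted p 0.0795), -0.53 without Lgr5-CreER library 1 (edgeR adjusted p 0.249) and -1.33 without Hopx-CreER library 3 (edgeR adjusted p 0.0343), where it passed. DESeq2 (adjusted p 0.0129) and edgeR with no count filter (adjusted p 0.00627) also called Gkn3 lower. Fstl1, a follistatin-like glycoprotein of the SPARC family (ENSMUSG00000022816.11, chr16:37776873-37836514, plus strand), was low throughout, at 9.49, 11.5 and 5.66 CPM against 20.7, 16.8 and 22.8 CPM. Its log2 fold change was -1.18 ± 0.29 (SE; edgeR adjusted p 0.0278), and -0.95 without Hopx-CreER library 3 (edgeR adjusted p 0.0136). The call was lost with any 1 of the Lgr5-CreER libraries left out (edgeR adjusted p 0.0633 to 0.113).

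Cdca7, a nuclear zinc-finger protein of cycling cells that works with the chromatin remodeller Hells, was the marker with the smallest spread in the Hopx-CreER cells. The gene (ENSMUSG00000055612.15, chr2:72476159-72486893, plus strand) stood at 509.3, 482.6 and 531.3 CPM against 909.95, 932.8 and 1040.4 CPM, with coefficients of variation of 4.8% and 7.25%. Its log2 fold change was -0.92 ± 0.10 (SE), and it had the smallest p of the 10 (edgeR adjusted p 0.00106). Over all alternatives its log2 fold change stayed between -1.04 and -0.86. Hells was low, at 1.84 ± 1.71 against 3.51 ± 1.66 CPM (SD, n = 3; edgeR adjusted p 0.422). Of 22 G1/S genes tested, 4 were lower, 0 higher and 18 did not pass, with a median log2 fold change of -0.37, against 3.3% lower and 9.45% higher over all tested genes. Mcm6, a helicase subunit, and Rrm1, of ribonucleotide reductase, had the smallest p values of the list, with log2 fold changes of -0.52 ± 0.10 and -0.44 ± 0.12 (SE; edgeR adjusted p 0.00926 and 0.0389).

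**Figure D2:**
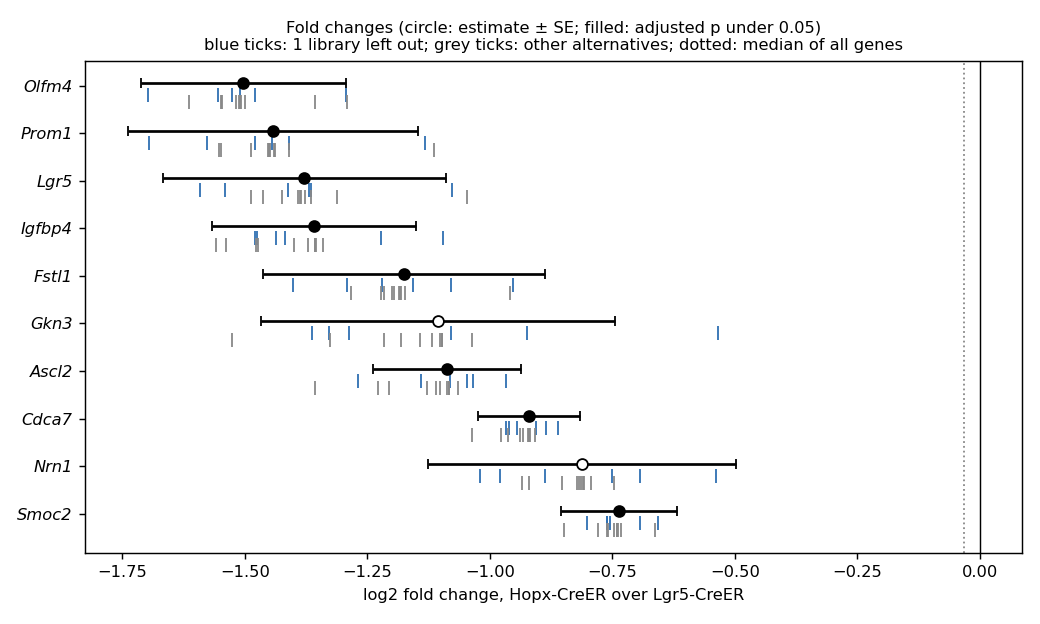
Log2 fold changes of the 10 markers with their SE (black; filled where the edgeR adjusted p was under 0.05), and the values under each alternative as ticks. All estimates and ticks lie between -1.70 and -0.53, left of the median of all tested genes at -0.033, and Gkn3 has the widest spread of ticks.

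The 10 markers split by how Hopx-CreER library 3 departed from libraries 1 and 2. In that library 6 markers were lower than the mean log2 CPM of the other 2, with log2 differences of -1.33 for Prom1, -1.29 for Lgr5, -0.87 for Fstl1, -0.80 for Olfm4, -0.43 for Nrn1 and -0.30 for Smoc2. The other 4 were higher, with 0.56 for Gkn3, 0.45 for Ascl2, 0.21 for Igfbp4 and 0.10 for Cdca7. The 6 that were lower have transcripts of 42.1% to 48.6% GC and the 4 that were higher 49.9% to 59.6%. Spearman's rho between GC content and this deviation was 0.806 over the 10 markers, given as a description, since the points share the same libraries. All tested genes leaned the same way, with a median deviation of -0.65 in the lowest of 10 equal bins by GC content and 0.24 in the highest. For genes around the GC content of Lgr5 and Prom1 the median was -0.34. With offsets for GC content in the model, the same 8 markers were lower, against 7.77% of all genes. Log2 fold changes were then -1.31 ± 0.20 for Lgr5, -1.36 ± 0.13 for Ascl2 and -1.36 ± 0.13 for Olfm4 (SE). Without Hopx-CreER library 3 they were -1.08 ± 0.12 for Lgr5, -1.27 ± 0.12 for Ascl2 and -1.29 ± 0.11 for Olfm4 (SE). Ascl2 had a more negative value than Lgr5 under both settings, with GC offsets by less than either SE.

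**Figure D3:**
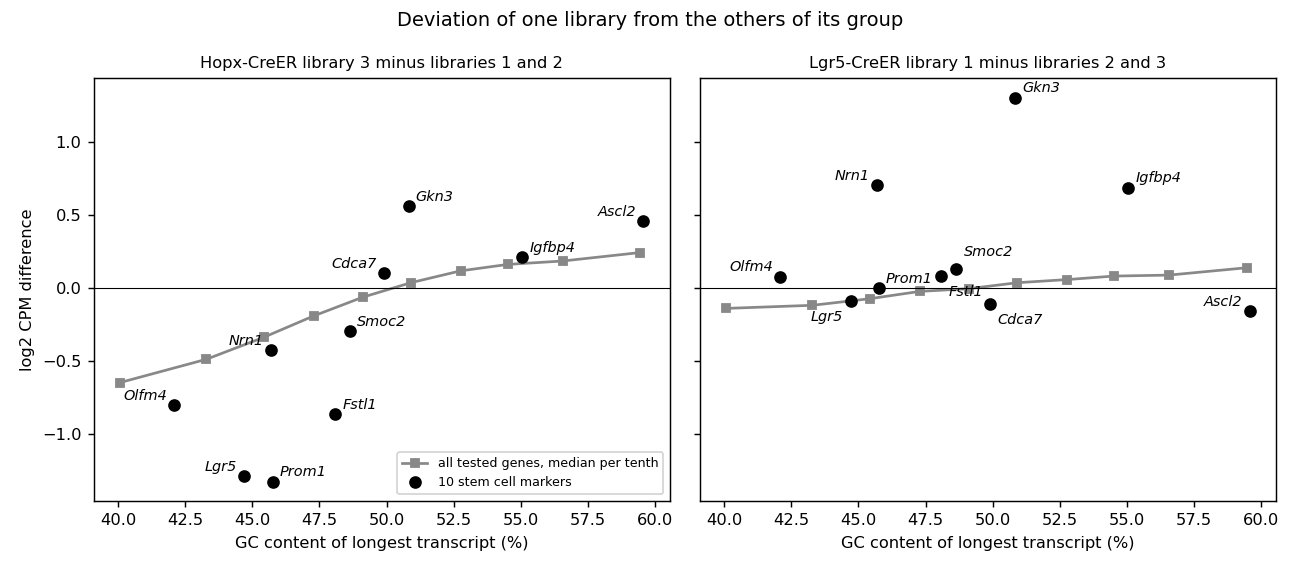
Log2 CPM of one library minus the mean of the other 2 of its group, against the GC content of the longest transcript (%), for the 10 markers (black) and for the median of each of 10 equal GC bins of all tested genes (grey). On the left, for Hopx-CreER library 3, the 6 markers of lower GC content lie below 0 and the 4 of higher GC content above it. On the right, for Lgr5-CreER library 1, Gkn3, Nrn1 and Igfbp4 stand above the rest.

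A second split came from Lgr5-CreER library 1. Gkn3, Nrn1 and Igfbp4 were higher there than in libraries 2 and 3, by 1.30, 0.70 and 0.68 on the log2 scale, and the other 7 markers differed by -0.16 to 0.13. Spearman's rho between GC content and these deviations was -0.00606 over the 10 markers, while over all tested genes it was 0.265, with bin medians from -0.14 to 0.14. The Wnt target Axin2 and the receptor Notch1 were also highest in that library, at 66.9 against 40.5 and 39.2 CPM and at 119.2 against 69.1 and 54.9 CPM. Wnt targets as a list were not, with a median log2 difference from the Lgr5-CreER mean of 0.013 in library 1. Slc14a1, a gene reported as enriched in Lgr5 stem cells, was lowest there, at 40 against 59.5 and 62.8 CPM. The share of all genes that were highest in library 1 was not counted. Lgr5-CreER libraries 2 and 3 carry the same number in the table, although the design counts 3 mice per genotype. All p-values treat the 6 libraries as independent and measure the spread between libraries, which may in part be technical. With these columns summed into 1 library, 5 of the 10 markers were lower (Ascl2, Olfm4, Smoc2, Igfbp4 and Cdca7), against 1.02% of 12861 tested genes. With Hopx-CreER library 3 also left out, 9 were lower, against 2.72% of 12712. Leaving out Lgr5-CreER library 1, 2 or 3 gave 7, 5 and 6 lower markers, against 1.58%, 0.911% and 1.26% of all genes. For Hopx-CreER libraries 1, 2 and 3 the counts were 8, 8 and 9, against 3.14%, 1.7% and 4.6%. DESeq2 and edgeR with no count filter each called 9, against 4.6% and 2.85%. With 8 called, the backgrounds were 3.39% (RLE factors), 4.24% (upper quartile), 5.86% (library totals), 3.3% (limma-voom) and 3.38% (at least 1 CPM in 3 libraries).

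Whether the other markers fell by another amount than Lgr5 was tested on the log2 ratio of each to Lgr5 in every library. By the exact two-sided permutation test of 3 against 3 libraries, the smallest p possible was 0.1, so that no ratio could pass 0.05 and the test cannot show whether the falls differed. After adjustment over the 9 ratios the values ran from 0.45 to 1. The targeted Lgr5 copy and the eGFP gate belong to the Lgr5-CreER cells alone. Any effect of them on Lgr5 would enter all 9 ratios, and it was not tested. For Smoc2 the difference in the mean log2 ratio was 0.75 (exact permutation p 0.1), with ratios of 16.4, 18 and 34.3 in the Hopx-CreER libraries all above the 14.2, 12.1 and 12.2 of the Lgr5-CreER libraries. Cdca7 showed the same arrangement, with a difference of 0.58 (exact permutation p 0.1). The differences for Prom1 and Olfm4 were -0.067 and -0.057 (exact permutation p 0.3 and 0.8). Without Hopx-CreER library 3 the Smoc2 difference was 0.42 and the Cdca7 difference 0.11, and the differences for Ascl2, Igfbp4 and Gkn3 changed from above to below 0.

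**Figure D4:**
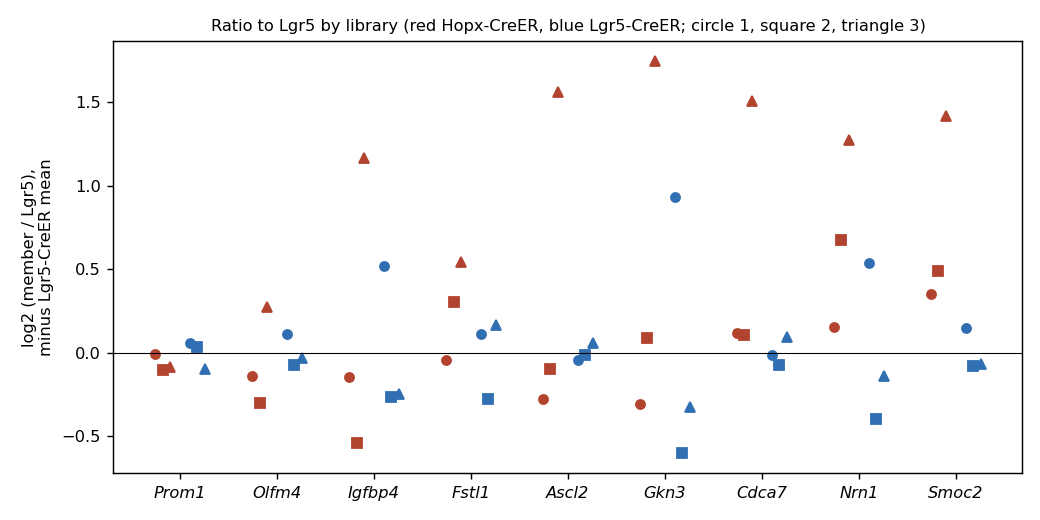
Log2 ratio of each marker's CPM to that of Lgr5, by library, less the mean of the Lgr5-CreER libraries. Prom1 stays within a narrow band in all 6 libraries, while Hopx-CreER library 3 (red triangle) is the highest point for the other 8 markers.

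Per kilobase of exon, the markers spanned a wide range of levels and kept nearly the same order in both groups. In the Lgr5-CreER cells Olfm4 led at 2547 ± 81.7 CPM per kb (SD, n = 3), followed by Cdca7 at 300.1 ± 21.8, Smoc2 at 198.9 ± 10.4 and Prom1 at 91.4 ± 4.53. Ascl2, Gkn3 and Igfbp4 came next at 76.2 ± 5.07, 65.4 ± 37.3 and 64.4 ± 18.8 CPM per kb, and did not differ beyond their spread. Lgr5 itself was eighth, at 10.5 ± 0.383 CPM per kb, above Nrn1 (4.88 ± 1.51) and Fstl1 (4.09 ± 0.613), which overlapped. In the Hopx-CreER cells Olfm4 stood at 898 ± 273, Lgr5 at 4.03 ± 1.73 and Fstl1 at 1.81 ± 0.604 CPM per kb, and Ascl2 and Prom1 changed places within their spread. These values divide by the union of annotated exons, which is 10.3 kb for Lgr5. Its longest transcript is 4.79 kb, on which Lgr5 stood at 22.5 CPM per kb in the Lgr5-CreER cells and kept its place. On the longest transcript Smoc2 stood at 348.1 and Prom1 at 160.4 CPM per kb in those cells, so levels per length depend on the length chosen.

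**Figure D5:**
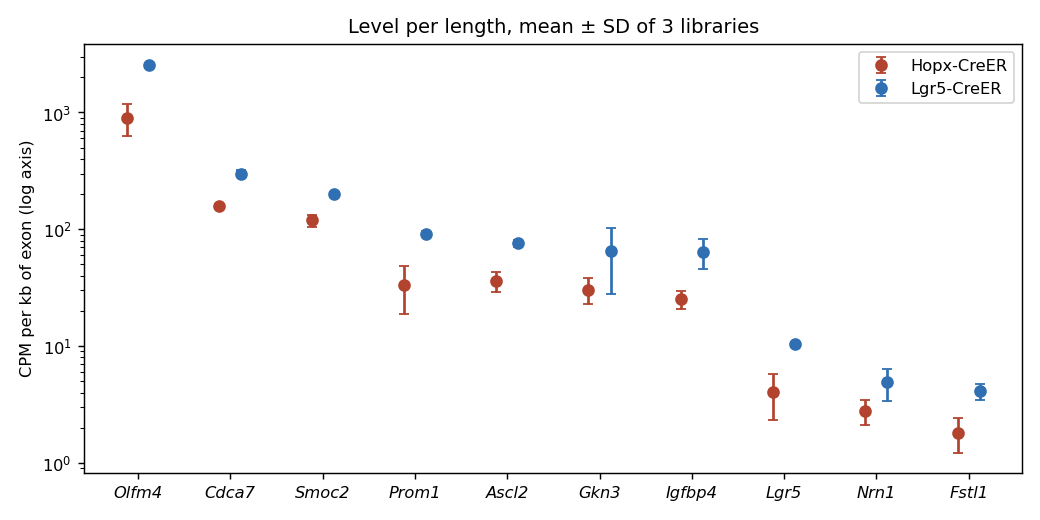
CPM per kilobase of annotated exon (log axis) for the 10 markers, ordered by their mean in the Lgr5-CreER cells, with the SD of 3 libraries. The Lgr5-CreER means lie above the Hopx-CreER means for all 10, and the order is nearly the same in both groups, from Olfm4 down to Fstl1.

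Other genes reported as enriched in Lgr5 stem cells were in large part lower too. Like the 10 markers, they are listed for enrichment in Lgr5-positive cells, and the Lgr5-CreER cells were gated on eGFP from the Lgr5 locus. Their direction is therefore no support independent of the sort. Of 36 further genes of this kind, all tested, 24 were lower, 0 were higher and 12 did not pass, with a median log2 fold change of -0.95, and in 34 every Hopx-CreER library lay below. Over all tested genes the shares were 3.3% and 16.2%. The number lower was 13 when Lgr5-CreER library 2 was left out and 14 for library 3, against 0.911% and 1.26% of all tested genes. Scn2b, a sodium channel subunit, was 14.2, 15.2 and 15 CPM against 44.2, 36.8 and 45.4 CPM, with a log2 fold change of -1.51 ± 0.17 (SE; edgeR adjusted p 0.000979). Slc14a1, a urea transporter, had a log2 fold change of -1.57 ± 0.20 (SE; edgeR adjusted p 0.00155), and Ephb3, a receptor that positions cells along the crypt, -1.01 ± 0.15 (edgeR adjusted p 0.00378). Soat1, which esterifies cholesterol, was 141.2 ± 14.5 against 370.3 ± 13.6 CPM (SD, n = 3), with an edgeR adjusted p of 0.000374. Rgmb, a BMP co-receptor, was 122 ± 7.9 against 251.4 ± 7.08 CPM (SD, n = 3), with an edgeR adjusted p of 0.000569. Tnfrsf19, at 108.6 ± 1.03 CPM in the Lgr5-CreER cells and 30.9 ± 4.6 CPM in the Hopx-CreER cells (SD, n = 3), had a log2 fold change of -1.81 ± 0.14 (SE; edgeR adjusted p 0.000374), more negative than that of any of the 10 markers. Msi1 and Mex3a, RNA-binding proteins chosen here for their low level, were 1.49 ± 0.428 against 3.25 ± 0.53 CPM and 0.79 ± 0.515 against 2.02 ± 0.214 CPM (SD, n = 3). Neither passed, with edgeR adjusted p values of 0.088 and 0.143.

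Genes whose level over the 6 libraries lay nearest to the median of the 10 markers included one of the 36. Rgmb was nearest, with a root mean square difference of 0.0957 on the log2 scale, followed by Klhl8, Arhgap35, Jaml and Cdo1 at 0.101 to 0.126. For Lgr5 alone the nearest after Pogk were Cnot1, Morc4, Aqp4 and Picalm at 0.168 to 0.192, of which Aqp4, a water channel, is among the 36. These were picked by likeness and their fold changes carry no further support.

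Wnt targets and the R-spondin receptor complex were lower in part. Of 17 Wnt target genes tested (19 listed, 9 of them also among the 36 and 2 among the 10), 11 were lower, 1 was higher and 5 did not pass, against 3.3% lower and 9.45% higher over all tested genes. The number lower was 6 when Lgr5-CreER library 2 or library 3 was left out, against 0.911% and 1.26%. The log2 fold change was -1.34 ± 0.23 (SE; edgeR adjusted p 0.00627) for Axin2, a negative regulator that reports Wnt activity, -1.19 ± 0.21 (edgeR adjusted p 0.00645) for Tcf7, a Wnt effector, and -0.80 ± 0.14 for Rnf43 (edgeR adjusted p 0.00592). The higher gene was Wif1, a secreted Wnt inhibitor, with 94 counts in the Hopx-CreER libraries against 3 in the Lgr5-CreER libraries, a ratio of 35.8 (exact 95% interval 11.9 to 177, for counting error only). Of 8 genes of the R-spondin and Wnt receptor complex tested (13 listed), 3 were lower, 1 was higher and 4 did not pass, against the same 3.3% and 9.45%. The 3 were Fzd7, Lgr5 itself and Rnf43, and the last 2 are already counted above. The Wnt receptor Fzd7 was 27.5 ± 1.76 against 55.1 ± 7.07 CPM and Fzd5 24.8 ± 3.52 against 12.9 ± 3.14 CPM (SD, n = 3), with edgeR adjusted p values of 0.00388 and 0.0296. Lgr4, the relative of Lgr5 expressed through the whole crypt, was 93.6, 68.2 and 35.8 CPM against 92.4, 107.7 and 101.5 CPM, so that its groups overlapped (log2 fold change -0.61 ± 0.28, SE; edgeR adjusted p 0.201). Znrf3, Lrp5 and Lrp6 did not pass (edgeR adjusted p 0.177, 0.355 and 0.815), and Lgr6 had counts in Hopx-CreER library 3 alone, at 0.464 CPM.

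Relatives of the markers were mixed. Of 7 tested, out of 16 in the table, 2 were lower, 3 were higher and 2 did not pass, against 3.3% and 9.45% of all tested genes. Igfbp2 and Igfbp3, which bind the same growth factors as Igfbp4, rose by 3.24 ± 0.59 and 2.95 ± 0.40 on the log2 scale (edgeR adjusted p 0.00791 and 0.00223). Igfbp3 was 12.3, 18.1 and 8.53 CPM against 1.2, 2.42 and 1.45 CPM, so these relatives and Igfbp4 were apart in opposite directions. Olfm1 rose by 1.45 ± 0.39 (edgeR adjusted p 0.039), opposite to Olfm4. Fstl4 was 4.18 ± 2.49 against 19.8 ± 3.73 CPM (SD, n = 3), a log2 fold change of -2.23 ± 0.46 (SE; edgeR adjusted p 0.0134). Cdca7l, the close relative of Cdca7, had -0.58 ± 0.16 (edgeR adjusted p 0.0445). Smoc1 was near 1 CPM in both groups (1.18 ± 0.51 and 1.18 ± 1.24 CPM, SD, n = 3; edgeR adjusted p 0.977). Fstl3, at 1.03 ± 0.652 against 0.164 ± 0.0935 CPM (SD, n = 3), did not pass the count filter and was not tested.

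Notch genes, named because Olfm4 responds to Notch, were mixed. Of 9 tested (10 listed), 3 were lower, 0 were higher and 6 did not pass, beside shares of 3.3% and 9.45% over all tested genes. Notch1 and Notch2, the receptors, had log2 fold changes of -1.23 ± 0.27 and -1.41 ± 0.24 (SE; edgeR adjusted p 0.0167 and 0.00585), and Lfng, which modifies them, -0.85 ± 0.16 (edgeR adjusted p 0.0096). The targets Hes1 and Nrarp had log2 fold changes of -0.19 ± 0.11 and -0.10 ± 0.24 (edgeR adjusted p 0.307 and 0.808). The ligands Dll1, Dll4 and Jag1 had log2 fold changes of -0.18, 0.10 and 0.032, and Atoh1, which Notch represses, 0.58 ± 0.29 (edgeR adjusted p 0.536, 0.709, 0.952 and 0.231).

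Most markers of differentiated cells were higher in the Hopx-CreER cells, in which the stem cell markers were lower. Summed CPM of 11 Paneth markers was 13838 to 30624 in the Hopx-CreER libraries, highest in library 3, and 1593 to 3259 in the Lgr5-CreER libraries, and 10 of the 11 were higher, against 9.45% of all tested genes (in 18.8% of them every Hopx-CreER library lay above). Of the goblet, enteroendocrine, tuft and enterocyte markers tested, 8 of 9, 10 of 12, 7 of 8 and 10 of 11 were higher. Their sums were 7079.5 to 10655, 2960.3 to 6292, 196.5 to 957.6 and 2034 to 4299 CPM in the Hopx-CreER libraries, against 2060.5 to 2730.3, 186.2 to 329.9, 109.1 to 159.4 and 822 to 1108 CPM. The tuft sum was 957.6, 770.9 and 196.5 CPM in Hopx-CreER libraries 1, 2 and 3, so it was lowest in the library where Lgr5 and Prom1 were lowest. Every Hopx-CreER library lay above for 5 of the 8 tuft markers tested. The most abundant were Lyz1 and Itln1 (Paneth), Fcgbp and Clca1 (goblet), Chga and Reg4 (enteroendocrine), Avil and Trpm5 (tuft) and Slc5a1 and Mttp (enterocyte). Of these, Slc5a1 did not pass (edgeR adjusted p 0.083). Lyz1, Paneth cell lysozyme, was 6432 ± 3515 against 813.1 ± 409 CPM, and Chga, a granule protein, 1745 ± 630.4 against 61.8 ± 11.7 CPM (SD, n = 3). The part of these cells in the lower stem cell markers was not tested. Fstl1, Igfbp4 and Smoc2 are also made by fibroblasts. Of 10 stromal markers 5 were in the table, with a sum of 23.8 to 33.3 against 2.21 to 3.3 CPM. Nearly all of it was Vim, at 28.01 ± 4.79 against 2.56 ± 0.647 CPM (SD, n = 3), which was the only one tested and was higher (edgeR adjusted p 0.000374). Col1a1 had 0 counts in all libraries, which allows up to 0.201 to 0.278 CPM (3 counts). Pdgfra and Acta2 had 0 counts in the Hopx-CreER libraries, and 2 and 5 counts in Lgr5-CreER library 2 (0.173 and 0.432 CPM). The part of stromal cells in the marker levels was not tested. Endothelial and blood cell markers, led by Pecam1 and Lyz2, summed to 2.64 to 6.26 against 0.134 to 1.65 CPM. Of 8 epithelial genes, 3 were higher, 0 were lower and 5 did not pass. The most abundant were the keratins Krt8, at 6471 ± 656 against 3228 ± 190.2 CPM, and Krt19, at 3876 ± 455 against 1989 ± 204 CPM (SD, n = 3; edgeR adjusted p values 0.00122 and 0.0022), and Krt18 was the third gene called. Epcam, which defines the epithelium, was 2207 ± 189 CPM in the Hopx-CreER and 2251 ± 134 CPM in the Lgr5-CreER cells (SD, n = 3), with an edgeR adjusted p of 0.889.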

How the data were processed

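RNA from sorted cells was amplified by SMART-Seq and tagged with Nextera XT, per the labels' protocols, neither of which marks the strand. The authors deposited raw counts per mouse Ensembl gene for 6 libraries, with no normalization. The submitters' processing notes name kallisto, edgeR and GRCh38, a human build that does not describe mouse identifiers. The role of each is not stated there. Columns were assigned to groups by the gate in their names, and every sample column was used. Symbols, lengths, GC content and positions came from GENCODE M21 (GRCm38), which matched 23479 of 23565 identifiers. Library totals ran from 10839306 to 14570555 counts, and 1 count was worth 0.0669 to 0.0928 CPM of the TMM-scaled library sizes. Depth sets counting error only, since PCR copies cannot be told from separate molecules.

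The test between groups was edgeR's quasi-likelihood test (edgeR 4.0.16, R 4.3.3; TMM, filterByExpr, Benjamini-Hochberg over 12439 genes, threshold 0.05), with SEs from the F statistic. The biological coefficient of variation, from the common dispersion of all tested genes, was 22.5%. All 10 members passed the filter. The alternatives, 16 in number, were RLE, upper quartile or no scaling factors, DESeq2 1.42.0, limma 3.58.1 (voom), no count filter, at least 1 CPM in 3 libraries, each library left out, GC offsets (spline, 5 degrees of freedom), and columns that share a number summed, with and without Hopx-CreER library 3. The script was tested on simulated data. Distances between genes were taken on log2 CPM (prior count 2). The members and lists were chosen with earlier results of these data known. Named genes are the 10 members; the 6 smallest p among called genes of the stem cell and Wnt lists, with any called against the list; all genes of the receptor, relative and Notch lists at 1 CPM or more; Hells and 2 further G1/S genes; the 2 most abundant of each marker list (one list is not reported here); and the nearest patterns. Msi1, Mex3a, Lgr6, Epcam, Krt18, Col1a1 and Pdgfra fall outside that rule and were picked with their values seen.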

Additional observations from a re-analysis of the deposited data

How the results depend on the processing

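All 10 members were lower in Hopx-CreER cells under each of the 16 alternatives. Ascl2, Olfm4, Smoc2, Igfbp4 and Cdca7 passed in all 16 and Nrn1 in 0, while Lgr5 lost its call in 3, Prom1 in 2 and Fstl1 in 4, and Gkn3 gained one in 4. Leaving out 1 library gave 5 to 9 members lower, 13 to 26 of the 36 other stem cell genes, 6 to 11 Wnt targets, and 723 to 1868 changed genes of all tested. The share of all tested genes that were lower ran from 0.911% to 4.6% over these settings. Summing the columns that share a number gave 5, 14, 6 and 790, with 1.02% of all tested genes lower. A library less also costs residual degrees of freedom. Library totals alone shifted the median of all genes by -0.114 and left 8 members lower, with a median of -1.25. Among ratios to Lgr5, leaving out 1 library reversed Ascl2 (main 0.39, then -0.19), Igfbp4 (0.16, then -0.34) and Gkn3 (0.51, then -0.11) without Hopx-CreER library 3, and Olfm4 (-0.057, then 0.067) without Hopx-CreER library 2. Over the 6 leave-outs these differences ran from -0.19 to 0.73 (Ascl2), -0.34 to 0.51 (Igfbp4), -0.11 to 0.97 (Gkn3) and -0.22 to 0.067 (Olfm4), and the other 5 kept their sign. Dividing by the longest transcript raised the level per length of Lgr5 from 4.03 to 8.63 CPM per kb, of Smoc2 from 119.4 to 209 and of Prom1 from 33.6 to 59 in Hopx-CreER cells. No paired analysis was possible because the columns carry no replicate number of the labels and the groups are different mice.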
